A study of Mus musculus with 6 samples.

Results

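The cells described here were 83 of 12818 tumor-infiltrating T cells, chosen by measured transcripts: each held unique molecular identifiers (UMIs, single counted RNA molecules) of at least 2 different genes among Krt83, Spry1, Ldlrad4 and Tbc1d4, and none held UMIs of both Tmem176a and Tmem176b. They are called members below. The cells came from subcutaneous B16-F10 melanomas, a syngeneic mouse tumor line, grown in Foxp3-EGFP-DTR mice, whose regulatory T (Treg) cells express the diphtheria toxin receptor from the Foxp3 locus, and total TCRβ+ T cells were sorted from the tumors of animals that received PBS (3 samples) or diphtheria toxin, DTx (3 samples), the agent that ablates Treg cells in this line. Strain background beyond this genotype and the age of the animals were not given in the labels. The cells carried a library number from 1 to 6, and no label tied a number to a PBS or DTx sample, so no value below compares the treatments, and the 6 numbers name libraries without a known group. All counts were therefore handled as 1 pool, values are given with counting intervals only, and no p-value is given.

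The 4 genes belong to unrelated pathways. Krt83 encodes a type II hair keratin, a structural protein of the hair shaft. Spry1 encodes Sprouty1, a feedback inhibitor of receptor signaling through Ras and the MAP kinases that is induced by T cell receptor stimulation. Ldlrad4 encodes a membrane protein that holds back TGF-β signaling by binding the receptor-activated Smad proteins, and Pmepa1 is its closest relative. Tbc1d4, also called AS160, is a Rab GTPase-activating protein and Akt substrate that governs the movement of glucose transporter vesicles. Tmem176a and Tmem176b encode paired membrane channels of dendritic cells and of type 17 lymphocytes, and cells with both were kept out by the rule.

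The table held 14597 genes, with between 1916305 and 5127776 UMIs in a library and a median of 1250.5 UMIs in a cell. Members were deeper than most cells, with a median of 2496 UMIs against 1212 in the 11516 comparison cells, which held none of the 4 genes and not both Tmem176 genes. A deeper cell has more chances to show any rare transcript, and 40 of the 83 members lay in the deepest quartile of their library. Members were therefore set against comparison cells of the same library and depth quartile: the UMIs of a gene found in members were divided by the UMIs expected if members had the comparison cells' share of that gene. Quartiles did not level the depth entirely, since in the deepest quartile the median was 4702.5 UMIs in members and 2557 in comparison cells. Counts of cells with a transcript were therefore set against the 20 comparison cells of the same library nearest in depth to each member, whose median was 2521.5 UMIs. T cell transcripts matched the sort: Cd3d, Cd3e or Cd3g was seen in 80 of 83 members and a T cell receptor constant gene (Trac, Trbc1 or Trbc2) in 72. The 12 T cell identity genes gave 1571 summed UMIs against 1520.1 expected (ratio 1.03, 0.983 to 1.09). Of the barcodes, 76 occurred in more than 1 library, and 2 members carried such a barcode.

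Each of the 4 genes was rare and mostly seen as a single molecule. Krt83 (chr15:101485130-101491512, minus strand, GRCm38 positions from the GENCODE annotation for all 4 genes) had UMIs in 269 cells, 238 of them with 1 UMI. Spry1 (chr3:37639947-37644598, plus strand) had UMIs in 274 cells, Ldlrad4 (chr18:67933257-68268630, plus strand) in 330 and Tbc1d4 (chr14:101442360-101609191, minus strand) in 413. The share of cells with Krt83 in libraries 1 to 6 was 2.92%, 0.189%, 2.38%, 2.66%, 2.82% and 2.22%. For Spry1 it was 2.59%, 0.53%, 1.9%, 3.85%, 1.86% and 2.81%. For Ldlrad4 the shares were 4.66%, 2.16%, 2.07%, 2.83%, 2.67% and 1.18%. For Tbc1d4 they were 3.01%, 1.59%, 2.69%, 6.22%, 4.63% and 2.17%. Krt83 and Ldlrad4 were seen most often in library 1, Spry1 and Tbc1d4 in library 4, and library 2 had the lowest share of Krt83, Spry1 and Tbc1d4. Library 4 had the deepest cells (median 2499.5 UMIs) and library 3 the shallowest (610), so these shares differ in depth as well. Per 10000 UMIs the order turned: library 3 was highest for Krt83 (0.308), Spry1 (0.266 against 0.17 in library 4) and Tbc1d4 (0.35 against 0.25), and library 1 for Ldlrad4 (0.376). Between 12% and 14.5% of the cells of each gene were members.

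The 83 members were assembled from every pair of the 4 genes. Tbc1d4 was present in 56 members, Ldlrad4 in 48, Krt83 in 34 and Spry1 in 33. Spry1 with Tbc1d4 (19 members), Ldlrad4 with Tbc1d4 (19) and Krt83 with Ldlrad4 (16) were the most frequent combinations, followed by Krt83 with Tbc1d4 (13) and Spry1 with Ldlrad4 (10). Krt83 with Spry1 alone was seen in 1 member. Of all members, 78 held exactly 2 of the genes and 5 held 3, and 56 rested on exactly 2 UMIs of the 4 genes together, the fewest the rule allows. Just outside the rule lay 1093 cells with 1 of the 4 genes, 109 of them with 2 or more UMIs of it, and 2 cells with at least 2 of the genes that also held both Tmem176 genes.

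Cells with at least 2 of the genes, including those 2, numbered 85 where 55.3 were expected if the genes fell independently into the cells of a library and depth quartile (ratio 1.54, 1.23 to 1.9). With 20 depth classes in each library, chosen after seeing the data, 58.4 were expected. The number expected without any link between the genes was thus the larger part of the number found. The pairs differed. Krt83 and Ldlrad4 met in 19 cells against 7.98 expected (ratio 2.38, 1.43 to 3.72). Spry1 and Tbc1d4 met in 23 cells against 11.3 expected (ratio 2.04, 1.29 to 3.06), and Ldlrad4 and Tbc1d4 in 22 cells against 12.2 expected (ratio 1.8, 1.13 to 2.72). The intervals of Krt83 with Tbc1d4, 17 cells against 10.7 expected (ratio 1.59, 0.924 to 2.54), and of Spry1 with Ldlrad4, 11 cells against 8.03 expected (ratio 1.37, 0.684 to 2.45), included 1. Krt83 and Spry1 was the pair found below its expectation, in 3 cells against 7.67 expected (ratio 0.391, 0.0807 to 1.14), and its interval also included 1. These ratios describe the genes that the rule itself uses and are no test of a link. The expected numbers were not matched on the lineage transcripts Cd4 and Cd8, by which all 4 genes differed, as given below. The part of lineage in the ratios was not tested.

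**Figure D1:**
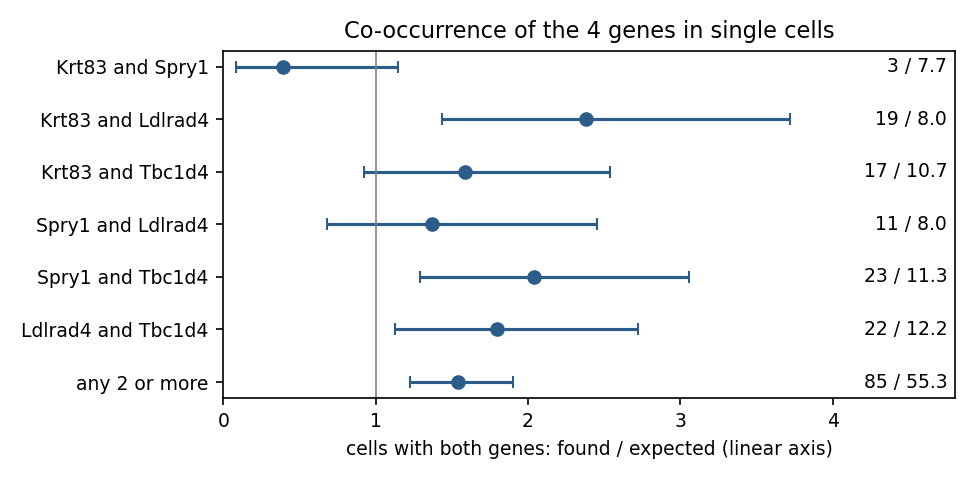
Found over expected number of cells holding both genes of a pair, on a linear axis, with 95% Poisson intervals of the found count; the numbers at the right are cells found and expected. Krt83 with Ldlrad4, Spry1 with Tbc1d4 and Ldlrad4 with Tbc1d4 lie above 1 with their whole interval, and Krt83 with Spry1 (3 cells) lies below 1 with an interval that includes it. Expected numbers were matched by library and depth quartile and not by Cd4 and Cd8 transcripts.

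Members were found in every library, at 0.942% (0.576 to 1.45%) of cells in library 1, 0.114% (0.0234 to 0.332%) in library 2, 0.397% (0.182 to 0.752%) in library 3, 1.58% (1.05 to 2.28%) in library 4, 0.755% (0.423 to 1.24%) in library 5 and 0.394% (0.17 to 0.775%) in library 6, with exact 95% binomial intervals. Library 4, the deepest, had the most members (28) and library 2 the fewest (3). After every cell was thinned to 1000 UMIs, which left out 4705 shallower cells, 20 of 8113 cells still met the rule, 0.247% (0.151 to 0.38%), and library 4 was at 0.179% (0.0369 to 0.521%) while library 1 was at 0.601% (0.242 to 1.24%). At 1500 UMIs the share was 0.416% (0.258 to 0.636%), from 21 of 5045 cells. In library 2 none of 478 cells met it there, which allows a share of up to 0.628% when 3 cells are taken as the limit of a count of 0, and up to 0.769% by the exact interval. The lead of library 4 was not seen at equal depth, and at 1000 UMIs the intervals of all 6 libraries overlapped.

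**Figure D2:**
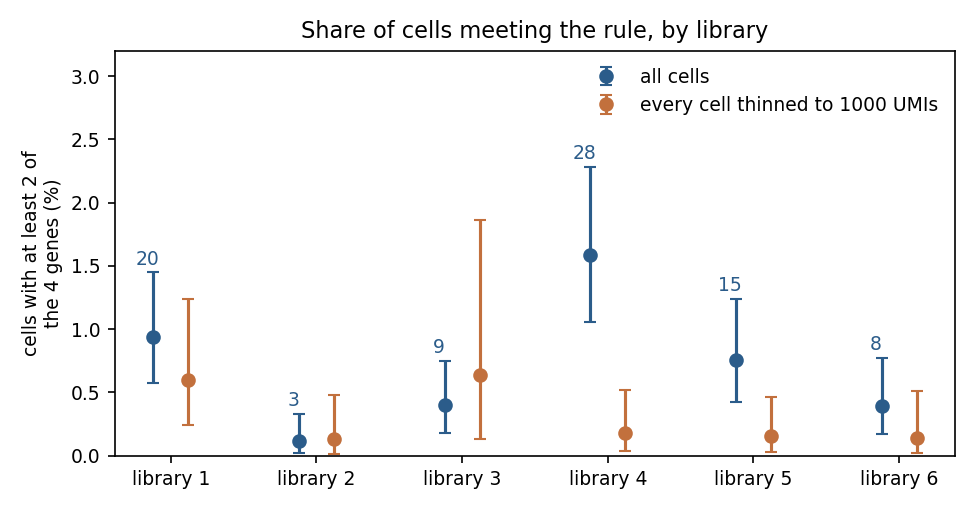
Percentage of cells with at least 2 of the 4 genes in libraries 1 to 6, in all cells (blue, with the number of members) and after thinning every cell to 1000 UMIs (orange); bars are exact 95% binomial intervals. Library 4 is highest among all cells with 28 members and lies among the lower libraries once thinned.

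Members leaned toward CD4 T cells. Cd4, the coreceptor of helper and regulatory T cells, was seen in 27 of 83 members (32.5%, 22.6 to 43.7%), where 13.7 cells were expected from cells of like depth. Over all members Cd4 had 36 UMIs against 18.2 expected (ratio 1.98, 95% interval 1.38 to 2.76). By library, Cd4 UMIs were 2 against 3.02 in library 1, 1 against 0.202 in library 2, 3 against 1.69 in library 3, 23 against 8.05 in library 4, 6 against 3.7 in library 5 and 1 against 1.5 in library 6. Library 4 held 23 of the 36, and in library 1 the number was below its expectation. Without library 4 the ratio of Cd4 was 1.28. Cd8b1, a chain of the CD8 coreceptor, gave 92 UMIs against 146 expected (ratio 0.628, 95% interval 0.506 to 0.771) and Cd8a 40 UMIs against 62.1 expected (ratio 0.644, 95% interval 0.459 to 0.879). Split by transcripts, 22 members (26.5%, 17.4 to 37.3%) held Cd4 without Cd8a or Cd8b1, where 11.1 were expected, and 22 members (26.5%, 17.4 to 37.3%) held Cd8a or Cd8b1 without Cd4, where 40.2 were expected. In 34 members (41%, 30.3 to 52.3%) neither was seen, and 5 members held both. Cells that hold both can be doublets, and no doublet caller was run. Background for Cd4 was 3.59% of the 4678 cells with Cd8a or Cd8b1 UMIs (median 1755.5 UMIs). Foxp3, the lineage factor of Treg cells, was seen in 6 of 83 members (7.23%, 2.7 to 15.1%), where 1.1 cells were expected, and in 0.385% of the cells with Cd8a or Cd8b1 UMIs.

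The same tilt was present in each gene on its own over all cells. Among cells with Cd4 and neither Cd8 nor Foxp3 UMIs (1205 cells, median 1622 UMIs), 3.65% (2.67 to 4.87%) held Krt83, 4.32% (3.24 to 5.62%) Spry1, 3.82% (2.81 to 5.06%) Ldlrad4 and 6.97% (5.6 to 8.56%) Tbc1d4. Among cells with Cd8 and neither Cd4 nor Foxp3 UMIs (4497 cells, median 1708 UMIs), the shares were 1.11% (0.826 to 1.46%), 1.73% (1.37 to 2.16%), 2.0% (1.61 to 2.45%) and 2.33% (1.91 to 2.82%) in the same order. The 2 intervals did not overlap for any of the 4 genes. They pool cells of all libraries, members included, and cover counting error only, and the same was not counted for other genes. Against all other cells matched by library and depth quartile, the number of Cd8 cells with Krt83 was 0.347 (0.258 to 0.457) of its expectation, the lowest of the 4, and with Tbc1d4 0.469 (0.384 to 0.568). Cells with no Cd4, Cd8 or Foxp3 UMI had 1.96 (1.66 to 2.29) times the expected number with Krt83 and 1.04 (0.869 to 1.24) times that with Spry1. Of the 97 cells with Foxp3 and no Cd8 UMIs, 5 were members.

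**Figure D3:**
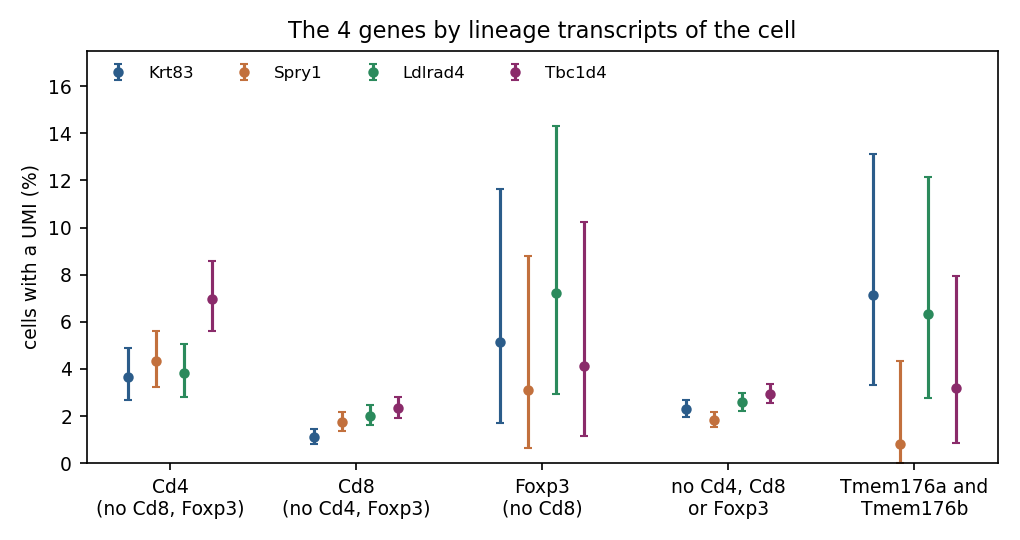
Percentage of cells with a UMI of Krt83, Spry1, Ldlrad4 or Tbc1d4 among cells split by Cd4, Cd8a or Cd8b1, Foxp3 and the pair Tmem176a and Tmem176b, with exact 95% binomial intervals. All 4 genes are lower in the Cd8 cells than in the Cd4 cells, and the Foxp3 (97 cells) and Tmem176 (126 cells) groups have wide intervals.

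Over all genes with at least 20 UMIs found and expected together, leaving out the genes of the rule, 52 of 3186 were at least 2-fold higher in members (1.63%) and 43 at least 2-fold lower (1.35%). Without library 4, which gave 28 of the 83 members, 10 of 1913 genes were at least 2-fold lower and 43 higher, of which 6 and 11 were among the 43 lower and 52 higher genes over all libraries. The median log2 ratio of all genes tested was 0.07. Intervals of a UMI ratio are exact 95% intervals for 2 Poisson counts and cover counting error only, and they are too narrow where 1 cell gave many of the molecules.

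The highest ratio among the genes tested was that of Areg, which encodes amphiregulin, a growth factor of Treg and type 2 lymphocytes: 175 UMIs against 41.2 expected (ratio 4.25, 95% interval 3.62 to 4.96). Its UMIs lay in 12 of 83 members (14.5%, 7.7 to 23.9%), where 7.45 cells were expected from cells of like depth. That expected share, 8.98%, lay inside the interval. A single cell held 81 of the UMIs, and without it the log2 ratio was 1.18 in place of 2.07. By library Areg was 8 against 7.93 in library 1, 0 against 0.0994 in library 2, 7 against 2.94 in library 3, 126 against 23.1 in library 4, 30 against 4.77 in library 5 and 4 against 2.33 in library 6. Libraries 4 and 5 held nearly all of the excess and library 1 was at its expectation, and without library 4 the ratio of Areg was 2.71. Matched on Cd4 and Cd8 transcripts as well, it was 2.6 (2.21 to 3.03), and with the cells that held both Cd4 and Cd8 UMIs left out the log2 ratio was 1.24. Next came Syt11, of the synaptotagmin family of vesicle proteins, with 19 UMIs against 4.82 expected (ratio 3.94, 95% interval 2.34 to 6.26), in 15 members and with no more than 3 UMIs in any. As the rule for naming genes required, Syt11 was higher in each of the 3 libraries with at least 10 members. It had 4 UMIs against 0.833 in library 1, 9 against 2.28 in library 4 and 4 against 0.826 in library 5. Slc9a9, an endosomal sodium-proton exchanger, gave 20 UMIs against 7.38 expected (ratio 2.71, 95% interval 1.64 to 4.23), and Insig1, an endoplasmic reticulum regulator of sterol synthesis, gave 25 UMIs against 9.38 expected (ratio 2.66, 95% interval 1.71 to 3.98). These 3 were spread over 15 or 16 members each. Pmepa1, a TGF-β-induced inhibitor of Smad signaling and the relative of Ldlrad4, had 25 UMIs against 11 expected (ratio 2.28, 95% interval 1.46 to 3.39). Trat1, an adaptor that stabilizes the T cell receptor complex, had 20 UMIs against 8.39 expected (ratio 2.38, 95% interval 1.44 to 3.72) and Pdcd1lg2, which encodes the PD-1 ligand PD-L2, had 29 UMIs against 12.8 expected (ratio 2.26, 95% interval 1.51 to 3.28). The other genes named by the same rule were Slc25a46, Xpo6, Tspan32, Pdlim5, Glcci1, Iws1, Esm1 and Zup1, with ratios between 2.28 and 2.67 and 15 to 25 UMIs found. All 15 were higher than expected in libraries 1, 4 and 5, which was a condition for naming them. Some lost the 2-fold excess without 1 library. Without library 5 the ratio of Pmepa1 was 1.97 and that of Pdcd1lg2 1.99, without library 4 that of Glcci1 was 1.62 and that of Iws1 1.81, and without library 1 that of Trat1 was 1.96 and that of Zup1 1.96. Trat1 was also within 2-fold when matched on Cd4 and Cd8 transcripts, at 1.75 (1.06 to 2.73).

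Among genes lower in members, those of dividing cells and of cytotoxic lymphocytes stood at the front. The histone gene Hist1h2ae had 6 UMIs against 135 expected (ratio 0.0443, 95% interval 0.0163 to 0.0965) and Hist1h2ap 6 UMIs against 30.4 expected (ratio 0.198, 95% interval 0.0724 to 0.431). Reads of these near-identical histone genes can be split between copies, so the value of each is uncertain. Rrm2, a subunit of ribonucleotide reductase, had 3 UMIs against 18.2 expected (ratio 0.165, 95% interval 0.0339 to 0.483), and Mki67, the proliferation marker Ki-67, 10 UMIs against 25.7 expected (ratio 0.39, 95% interval 0.186 to 0.719). Gzma, which encodes granzyme A of cytotoxic granules, had 106 UMIs against 381 expected (ratio 0.278, 95% interval 0.228 to 0.337), and Gzmk 17 UMIs against 43.5 expected (ratio 0.391, 95% interval 0.227 to 0.627). Gzma was seen in 18 of 83 members (21.7%, 13.4 to 32.1%), where 26.25 cells were expected from cells of like depth. That expected share, 31.6%, lay inside the interval, and 1 member held 26 of the Gzma UMIs. Gzma was 0 against 3.13 in library 1, 0 against 0.0412 in library 2, 2 against 3.08 in library 3, 35 against 232 in library 4, 39 against 97.8 in library 5 and 30 against 44.4 in library 6, so that libraries 4, 5 and 6 carried nearly all of its UMIs on both sides of the comparison. Xcl1, a chemokine of CD8 T and NK cells, had 10 UMIs against 37.5 expected (ratio 0.266, 95% interval 0.128 to 0.491). It was absent from the members of libraries 2, 4, 5 and 6, and in library 3 it was above its expectation, at 7 against 4.2. Mthfd2, a mitochondrial enzyme of folate metabolism, had 5 UMIs against 16.6 expected (ratio 0.301, 95% interval 0.0975 to 0.704), Cd7 17 UMIs against 43.7 expected (ratio 0.389, 95% interval 0.226 to 0.623) and Wdr95 6 UMIs against 14.6 expected (ratio 0.41, 95% interval 0.15 to 0.895). Without library 4 the ratios of Cd7, Gzmk and Mki67 were 0.515, 0.511 and 0.541, less than 2-fold below expectation, that of Gzma was 0.478 and that of Wdr95 0.27. Without library 3 the ratios of Xcl1, Rrm2, Hist1h2ap and Hist1h2ae were lower still, at 0.090, 0.0579, 0.0761 and 0.0234.

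**Figure D4:**
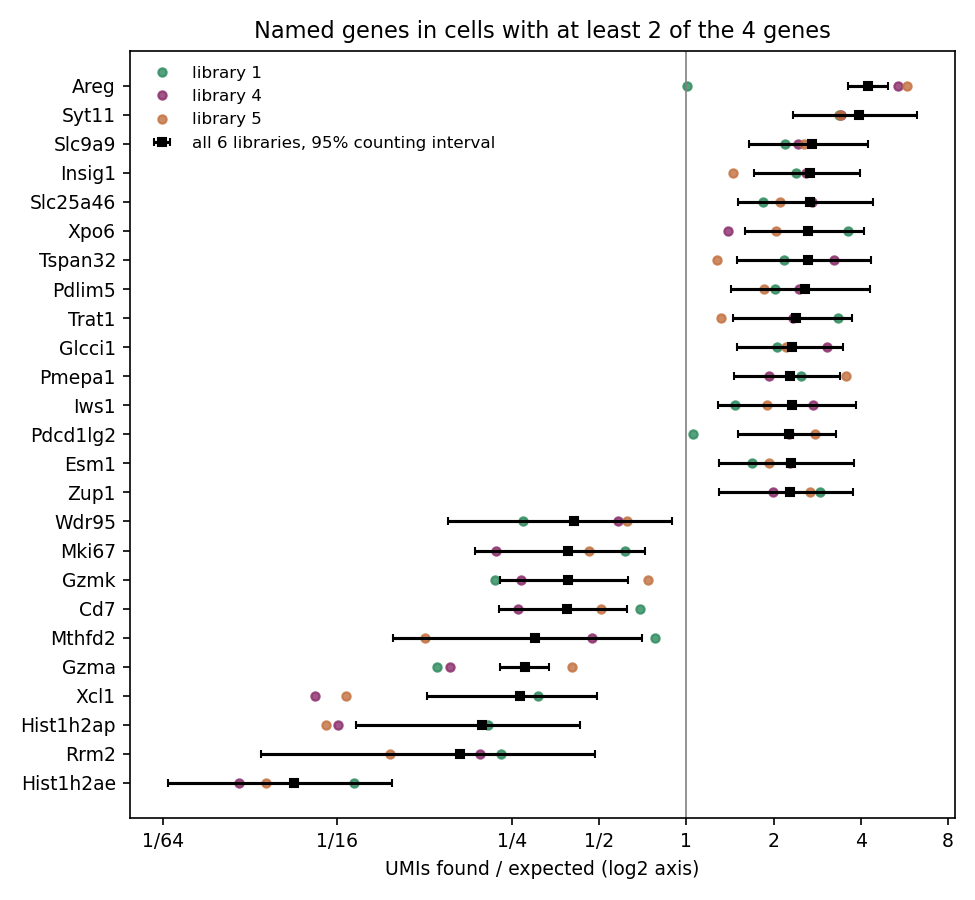
UMIs found over UMIs expected for the 25 named genes, on a log2 axis, over all 6 libraries (black squares with 95% counting intervals) and in libraries 1, 4 and 5 (colored points, with 0.5 added to both counts). The 15 higher genes lie right of 1 and the 10 lower genes left of 1 in all 3 libraries, which was a condition for naming them. Areg in library 1 lies at about 1.

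Cytotoxic transcripts were lower as a group, unevenly. Of the 12 genes of the type 1 and cytotoxic list, 10 had enough UMIs, and 3 (Gzma, Gzmb and Gzmk) were at least 2-fold lower and none was 2-fold higher. The list gave 1727 summed UMIs against 2979 expected (ratio 0.58, 0.553 to 0.608), and its median log2 ratio was -0.41 against 0.07 for all genes. By library its UMIs were 376 against 536 in library 1, 0 against 9.24 in library 2, 283 against 277 in library 3, 488 against 1269 in library 4, 394 against 562 in library 5 and 186 against 326 in library 6. They were below expectation in 5 libraries and about at it in library 3, with library 4 holding the largest deficit in UMIs and library 2 no UMI at all. Gzmb was at 0.434 (0.342 to 0.542) of its expectation, Ccl5 at 0.56 (0.525 to 0.597) and Nkg7, a granule protein, at 0.65 (0.569 to 0.741). Ifng, at 0.88 (0.722 to 1.06), and Tbx21, the type 1 lineage factor, at 1.03 (0.575 to 1.71), had intervals that included 1, and Cxcr3, the chemokine receptor of type 1 T cells, was higher at 1.73 (1.24 to 2.35). NK receptors were also lower, with 126 summed UMIs against 215 expected (ratio 0.585, 0.487 to 0.697), and the 3 tested, Klrd1, Klrc1 and Klrk1, were at 0.665 (0.518 to 0.842), 0.62 (0.448 to 0.836) and 0.434 (0.231 to 0.744). Without library 5 Gzmb was at 0.509, and without library 4 Gzmk was at 0.511, Gzma at 0.478, Klrk1 at 0.649 and the NK receptor list at 0.798. Members held fewer Cd8 cells than expected, and when comparison cells were also matched on Cd4 and Cd8 transcripts, a matching chosen after seeing the data, the ratio was 0.805 (0.767 to 0.844) for the cytotoxic list and 0.909 (0.757 to 1.08) for the NK receptors. Within matched cells Gzma was at 0.438 (0.358 to 0.53) and Gzmb at 0.56 (0.442 to 0.70). Gzmk, at 0.552 (0.321 to 0.886), was no longer 2-fold lower and Klrd1 was at 1.02 (0.795 to 1.29). Cxcr3 and Ccl4, which encodes a chemokine of effector T cells and was at 1.15 (0.979 to 1.35) before this matching, were higher than expected, at 1.99 (1.43 to 2.71) and 1.81 (1.54 to 2.12).

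Transcripts of the cell cycle were also lower. All 7 tested genes of the 10 on the proliferation list were below expectation, 5 of them at least 2-fold, with a median log2 ratio of -1.07 and 96 summed UMIs against 216 expected (ratio 0.445, 0.36 to 0.544). The UMIs were 8 against 17.7 in library 1, 1 against 0.926 in library 2, 19 against 12.8 in library 3, 24 against 88.6 in library 4, 18 against 57.2 in library 5 and 26 against 38.6 in library 6. Libraries 1, 4, 5 and 6 were below expectation, library 3 was above it, and library 2 held 1 UMI. Stmn1, a microtubule regulator of dividing cells, was at 0.447 (0.272 to 0.692), Top2a, topoisomerase II, at 0.484 (0.25 to 0.849) and Birc5, survivin, at 0.468 (0.255 to 0.788). Without library 4 Stmn1, Top2a, Birc5 and Mki67 were at 0.567, 0.70, 0.658 and 0.541, each below expectation by less than 2-fold, while Birc5 was at 0.215 without library 6. Matching on Cd4 and Cd8 transcripts left the list at 0.456 (0.369 to 0.558).

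Several genes of Treg, follicular helper and activated CD4 T cells had ratios above 1 in members, and others, given with the lists, did not differ from 1 beyond their intervals. Ctla4, the inhibitory receptor of Treg and activated T cells, had 121 UMIs against 55.9 expected (ratio 2.17, 95% interval 1.79 to 2.6). By library Ctla4 was 34 against 11.5 in library 1, 1 against 0.39 in library 2, 4 against 5.02 in library 3, 50 against 24.6 in library 4, 14 against 10.0 in library 5 and 18 against 4.31 in library 6. It was above expectation in 5 libraries and just below it in library 3, and without library 1 its ratio was 1.96. Ctla4 was seen in 44 of 83 members (53%, 41.7 to 64.1%), where 27.6 cells were expected, and in 22.5% of the 4510 cells with Cd8 and no Cd4 UMIs. Izumo1r, folate receptor 4 of Treg and follicular helper cells, had 28 UMIs against 10.0 expected (ratio 2.8, 95% interval 1.84 to 4.09), and Slamf6, a receptor of progenitor-like and follicular T cells, 21 UMIs against 8.78 expected (ratio 2.39, 95% interval 1.47 to 3.69). Izumo1r was 10 against 2.85 in library 1, 3 against 0.327 in library 2, 3 against 0.971 in library 3, 10 against 4.0 in library 4, 1 against 1.31 in library 5 and 1 against 0.545 in library 6, with most of its UMIs in libraries 1 and 4. Without library 4 the ratio of Slamf6 was 1.59. Icos, the inducible costimulator, was at 1.4 (1.19 to 1.63), Maf, a transcription factor of follicular helper and interleukin-10-producing T cells, at 1.83 (1.35 to 2.44), Ikzf2, the Treg-associated factor Helios, at 1.85 (1.33 to 2.51) and Rora at 1.61 (1.27 to 2.01). With the Cd4 and Cd8 matching Maf was at 1.32 (0.972 to 1.76), an interval that included 1. Icos was then at 1.19 (1.01 to 1.39), Rora at 1.42 (1.12 to 1.78) and Ikzf2 at 1.75 (1.26 to 2.37). Izumo1r was at 2.09 (1.37 to 3.06) and Slamf6 at 2.59 (1.59 to 4.01). Maf UMIs were 15 against 7.68 in library 1, 0 against 0.136 in library 2, 5 against 3.35 in library 3, 26 against 10.0 in library 4, 1 against 3.63 in library 5 and 2 against 1.87 in library 6, above expectation in libraries 1, 3 and 4 and below it in library 5.

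The Treg list gave 501 summed UMIs against 368 expected (ratio 1.36, 1.24 to 1.49), and all 8 tested genes lay above a log2 ratio of 0, 1 of them, Ctla4, by at least 2-fold. Their median log2 ratio was 0.25 against 0.07 for all genes tested, most of which also lay above 0. Of its other genes, Ikzf2 is given above, and Il2ra was at 1.08 (0.72 to 1.56), Tnfrsf18, which encodes GITR, at 1.22 (0.963 to 1.52), Tnfrsf4, which encodes OX40, at 1.1 (0.895 to 1.35) and Tigit at 1.17 (0.874 to 1.53). Without library 1 or library 3 Il2ra was below expectation, at 0.914 and 0.944, and without library 4 it was at 1.62. With the Cd4 and Cd8 matching the list was at 1.12 (1.02 to 1.22) and Ctla4 at 1.98 (1.64 to 2.38), and 4 of the 8 genes were below expectation, Tnfrsf4 at 0.781 (0.633 to 0.953), Il2ra at 0.879 (0.586 to 1.27), Capg at 0.888 (0.669 to 1.16) and Tnfrsf18 at 0.947 (0.749 to 1.18). With that matching Ctla4 supplied 121 of the 501 UMIs found for the list, against 61.2 of the 449 expected. The 6 members with Foxp3 were part of these values. The follicular helper list gave 252 summed UMIs against 177 expected (ratio 1.43, 1.25 to 1.61), and 5 of its 8 genes had too few UMIs, Cxcr5 with 1 against 0.158, Bcl6 with 3 against 2.11 and Il21 with 4 against 0.818 among them, so its total was mostly Icos. With the Cd4 and Cd8 matching the follicular helper list was at 1.26 (1.11 to 1.43). The inhibitory receptor and exhaustion list gave 294 summed UMIs against 208 expected (ratio 1.41, 1.25 to 1.59), of which Ctla4 supplied 121 UMIs. Pdcd1, which encodes PD-1, was at 1.21 (0.883 to 1.61) and Havcr2, which encodes TIM-3, at 0.771 (0.383 to 1.39), and Lag3 had 4 against 10.1. Of the 11 Havcr2 UMIs 10 lay in library 4. Tox, a factor of exhausted T cells, had 9 against 9.21.

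Type 2 genes gave 328 summed UMIs against 175 expected (ratio 1.88, 1.68 to 2.1), and Areg made up 175 of these UMIs, 81 of them from 1 cell. When comparison cells were also matched on Cd4 and Cd8 transcripts, the list was at 1.22 (1.09 to 1.36) and its median log2 ratio went from 0.49 to -0.29. Areg then had its 175 UMIs against 67.4 expected, and no other gene of the list had an interval wholly above 1. Without that matching Gata3, the type 2 lineage factor, was at 1.41 (1.07 to 1.84) and Ccr8, a chemokine receptor of tumor Treg and type 2 cells, at 1.64 (1.01 to 2.52), while Il4 was at 0.818 (0.475 to 1.32) and Il13 at 1.1 (0.692 to 1.65), which was 0.393 without library 4. With that matching Gata3 was at 1.05 (0.794 to 1.36) and Ccr8 at 1.28 (0.783 to 1.97), while Il4 and Il13 were below expectation, at 0.508 (0.295 to 0.818) and 0.638 (0.402 to 0.963). The naive, memory and homing genes were together near expectation, 438 summed UMIs against 411 expected (ratio 1.06, 0.967 to 1.17) and a ratio of 0.927 without library 4. Libraries 2 and 3 were below expectation and libraries 4 and 5 above it, with 104 against 125 in library 1, 17 against 30.5 in library 2, 32 against 53.7 in library 3, 177 against 129.8 in library 4, 78 against 48.7 in library 5 and 30 against 23.3 in library 6, and the median log2 ratio went from 0.09 to -0.33 when cells were matched by library only. Its genes lay on both sides: Il7r, the interleukin-7 receptor, was at 1.33 (1.09 to 1.62) and Slamf6 higher, Satb1 was at 0.653 (0.446 to 0.923), and Ccr7, Lef1, Tcf7 and S1pr1 lay between 0.97 and 1.14. The tissue residency list gave 624 summed UMIs against 510 expected (ratio 1.22, 1.13 to 1.33). It was below expectation in library 2, at 3 against 3.97, and library 6, at 24 against 44.9, and above it in the others. Of its genes, Rgs1 was at 1.39 (1.25 to 1.54) and Cd69 at 1.07 (0.873 to 1.29), with Itgae at 4 against 3.98 UMIs. Xcl1, given above, was also on this list and was the only tested gene of it past 2-fold, lower at 0.266. Of the 19 type 17 genes only Maf and Rora had enough UMIs. Il17a had 1 against 1.41 and Il23r 2 against 0.282, and the gamma-delta receptor genes together 11 summed UMIs against 11.6 expected (ratio 0.952, 0.473 to 1.72). Library 5 held 7 of these 11 UMIs, and the ratio was 0.414 without library 5 and 1.5 without library 4.

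**Figure D5:**
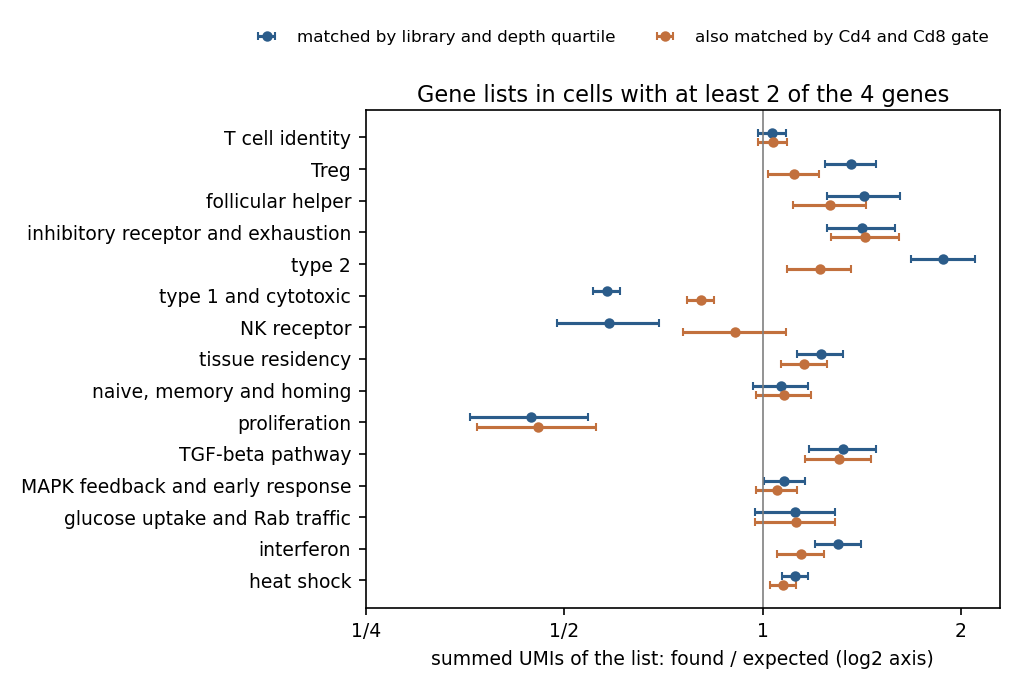
Summed UMIs of 15 gene lists in members over the UMIs expected, on a log2 axis with 95% counting intervals, matched by library and depth quartile (blue) and also by Cd4 and Cd8 transcripts (orange). The proliferation list lies near 1/2 under both, the cytotoxic and NK receptor lists move toward 1 under the second, and the T cell identity list lies at about 1.

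The pathways of the 4 genes were examined through their other components. In the TGF-β pathway, 8 of 13 genes had enough UMIs, all 8 were above a log2 ratio of 0, and 1, Pmepa1, was at least 2-fold higher. The median log2 ratio of the 8 was 0.39 against 0.07 for all genes tested, most of which also lay above 0. The list gave 301 summed UMIs against 227 expected (ratio 1.32, 1.18 to 1.48), with 94 against 54.8 in library 1, 0 against 3.83 in library 2, 23 against 24.5 in library 3, 115 against 88.1 in library 4, 44 against 34.7 in library 5 and 25 against 21.3 in library 6. Skil, a Smad corepressor, was at 1.56 (1.07 to 2.19), Smad2, a receptor-activated Smad, at 1.85 (1.03 to 3.08) and Smad7, the inhibitory Smad, at 1.3 (0.976 to 1.71), and the ligand gene Tgfb1 and the receptor gene Tgfbr2 were at 1.01 (0.749 to 1.33) and 1.12 (0.746 to 1.61). Tgfb1 was at 0.88 without library 1, and Pmepa1 was at 1.97 without library 5. With the Cd4 and Cd8 matching the list was at 1.3 (1.16 to 1.46). In the MAP kinase feedback and early response list, 776 summed UMIs against 719 expected (ratio 1.08, 1.0 to 1.16), none of the 8 tested genes reached 2-fold. Dusp10, a MAP kinase phosphatase, was at 1.43 (1.08 to 1.86) and Nr4a1, an early response gene of the T cell receptor, at 1.24 (1.03 to 1.47), while Dusp2 was at 0.79 (0.661 to 0.939). Spry2 had 1 against 1.74 UMIs and Spry4 0, so other Sprouty genes could not be followed. The glucose uptake and Rab list was near expectation, at 206 summed UMIs against 184 expected (ratio 1.12, 0.972 to 1.29). Rab14 was at 1.49 (1.08 to 2.0), Rab10, a substrate of Tbc1d4, at 1.11 (0.762 to 1.57) and Tbc1d1, the relative of Tbc1d4, had 11 against 7.72 UMIs. Of the keratin genes other than Krt83, members held 1 UMI, of Krt18.

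The cells of the 4 genes were next described by gene, over all cells with that gene and without the Tmem176 pair (members included), so the 4 sets share the members. Their values here and in the next paragraph were matched by library and depth quartile, and not by Cd4 and Cd8 transcripts. All 4 genes differed by these transcripts, as given above, and the part of lineage in the values was not tested. In the 260 Krt83 cells 46 of 5227 genes were at least 2-fold higher (0.88%) and 48 lower (0.918%). Ramp3, a receptor activity-modifying protein that partners the calcitonin receptor-like receptor, had 107 UMIs against 38.6 expected (ratio 2.77, 95% interval 2.25 to 3.38), in 64 cells. Serpinb1a, a serine protease inhibitor, had 54 UMIs against 17.8 expected (ratio 3.03, 95% interval 2.25 to 4.02), 25 of them in 1 cell. Calca, which encodes the peptide CGRP, had 29 UMIs against 5.3 expected (ratio 5.47, 95% interval 3.56 to 8.15), in 10 cells with at most 7 UMIs in 1. Rora was at 2.07 (1.79 to 2.38) and Il23r had 6 against 0.631 UMIs. Genes of naive and recirculating T cells were lower: Dapl1 had 1 UMI against 19.1 expected (ratio 0.0524, 95% interval 0.00132 to 0.293), Igfbp4 3 UMIs against 33.4 expected (ratio 0.0898, 95% interval 0.0185 to 0.263) and Ccr7 16 UMIs against 57 expected (ratio 0.281, 95% interval 0.16 to 0.456). Nr4a1 was higher, at 1.79 (1.61 to 1.98), and so was Skil, at 1.99 (1.6 to 2.46). The type 17 list, without the Tmem176 genes, gave 416 summed UMIs against 206 expected (ratio 2.02, 1.82 to 2.23), and the cytotoxic list 3457 summed UMIs against 6459 expected (ratio 0.535, 0.517 to 0.554).

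Spry1 cells (273), Ldlrad4 cells (322) and Tbc1d4 cells (409) had 0.736%, 0.896% and 0.594% of genes at least 2-fold higher and 0.596%, 0.568% and 0.71% lower. In Spry1 cells Eea1, an early endosome tether, had 55 UMIs against 27.3 expected (ratio 2.01, 95% interval 1.5 to 2.65), above expectation in each of the 6 libraries. Eea1, and Izumo1r and Tnfsf11 below, were picked for 1 direction in every library with at least 10 such cells, so this followed from the choice. Ccr8 was at 2.51 (1.94 to 3.21), Pdcd1 at 1.69 (1.42 to 1.99) and Slamf6 at 1.95 (1.39 to 2.67). Their cytotoxic list was at expectation, 1.01 (0.992 to 1.04), where those of Ldlrad4 and Tbc1d4 cells were at 0.689 (0.669 to 0.709) and 0.641 (0.625 to 0.656). Klrk1, an activating NK receptor, was lower in Spry1 cells at 0.405 (0.27 to 0.584), and Penk, which encodes proenkephalin, had 2 against 29.5 UMIs. In Ldlrad4 cells Izumo1r had 67 UMIs against 27.6 expected (ratio 2.42, 95% interval 1.86 to 3.12), above expectation in each of the 6 libraries, Ctla4 was at 1.72 (1.5 to 1.98), and Eomes, a factor of cytotoxic and memory CD8 cells, had 8 UMIs against 18.3 expected (ratio 0.437, 95% interval 0.187 to 0.868). In Tbc1d4 cells Tnfsf11, which encodes RANK ligand, had 109 UMIs against 48.8 expected (ratio 2.24, 95% interval 1.81 to 2.73), also above expectation in each of the 6 libraries. Maf was at 1.91 (1.63 to 2.22) there, Cd4 at 2.03 (1.7 to 2.41) and Gzma at 0.454 (0.418 to 0.493). The TGF-β list was at 1.38 (1.28 to 1.49) in Krt83 cells, 1.23 (1.14 to 1.32) in Ldlrad4 cells, 1.11 (1.04 to 1.18) in Tbc1d4 cells and 0.946 (0.866 to 1.03) in Spry1 cells.

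Members with and without Krt83 were also set against each other. The 34 members with Krt83 had a median of 1884.5 UMIs and the 49 without it 3113. Depth was not matched in this comparison. Compared directly within libraries, members with Krt83 had 1.85 times the tissue residency UMIs of the others (1.58 to 2.17) and 0.603 (0.477 to 0.756) times their naive, memory and homing UMIs. The follicular helper list was at 0.707 (0.524 to 0.943) and the heat shock list at 1.33 (1.21 to 1.46). The proliferation list was at 0.90 (0.584 to 1.38) and the Treg list at 0.847 (0.696 to 1.03), both with intervals that included 1.

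The 1093 cells with 1 of the 4 genes, which the rule left out, were set against the same comparison cells, again without matching on Cd4 and Cd8 transcripts. In them 0.384% of 8861 genes were at least 2-fold higher and 0.519% lower. These shares cannot be compared with those of the members, because they depend on how many UMIs the genes have. With a minimum of 50 UMIs, 3 of 1330 genes were higher and 11 lower in members. Both sets share the comparison cells. Ctla4 was at 1.22 (1.12 to 1.34) in the cells with 1 gene, Izumo1r at 1.63 (1.35 to 1.96), Maf at 1.54 (1.37 to 1.73) and Gzma at 0.579 (0.551 to 0.609). The proliferation list was at 0.963 (0.912 to 1.02) there, near expectation, and the Treg list at 1.27 (1.23 to 1.32).

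Members were last set against 2 other groups of cells, within libraries and without matching of depth. The median was 2496 UMIs in members, 1437.5 in the Foxp3 cells used and 1903.5 in the Tmem176 cells. Foxp3-positive cells without Cd8 UMIs were found in libraries that held 35 of the 78 members outside that group. The remaining 43 members, those of libraries 4 and 5, were left out of this comparison. Those libraries held 221 and 44 of the 328 type 2 UMIs of all members. The type 2 value below rests on 39 UMIs against 81.1 expected and does not cover them. Relative to 92 Foxp3 cells that were not members, the members had 0.626 (0.521 to 0.748) times the UMIs of the Treg list without Foxp3, 2.3 (2.05 to 2.58) times those of the cytotoxic list and 0.481 (0.332 to 0.682) times those of the type 2 list. Relative to the 126 Tmem176a and Tmem176b double-positive cells, members had 0.464 (0.382 to 0.561) times the type 17 UMIs, Tmem176 genes left out, and 0.341 (0.16 to 0.664) times the gamma-delta receptor UMIs. They had 3.13 (2.89 to 3.4) times the cytotoxic UMIs, 1.84 (1.52 to 2.23) times those of the inhibitory receptors and 0.469 (0.361 to 0.606) times those of proliferation. Set against comparison cells matched by depth quartile, the cytotoxic list was at 0.58 in members and 0.26 in Tmem176 cells. The proliferation list was at 0.445 and 0.727 in the same order.

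T cell receptor variable segments were diverse among members. A Trbv segment was seen in 74 members, and the most abundant one in each cell came from 18 different segments. Trbv3 led in 13 members and had 93 UMIs against 40.3 expected (ratio 2.31, 95% interval 1.86 to 2.84). Its UMIs were 14 against 7.91 in library 1, 0 against 0.494 in library 2, 0 against 2.38 in library 3, 31 against 21.1 in library 4, 33 against 6.1 in library 5 and 15 against 2.24 in library 6, with library 5 holding the largest excess, and its ratio was 1.76 without that library. Trav segments were seen in 56 members, led by 31 different ones. Trbv3 was chosen here after its values were seen. No UMI of the 4 melanoma genes was found in members. The myeloid list gave 43 summed UMIs against 42.3 expected (ratio 1.02, 0.733 to 1.37), with Csf1r at 0, and the B cell list 24 summed UMIs against 21.4 expected (ratio 1.12, 0.716 to 1.68), with Cd79a at 0 and 21 of the UMIs from Ighm. By library, summed myeloid markers ran from 0.633 to 5.48 per 10000 UMIs in members and from 0.691 to 1.63 in comparison cells, and summed B cell markers from 0.357 to 3.65 and from 0.522 to 1.48. Pecam1, an adhesion receptor of endothelial and naive T cells, had 15 UMIs against 5.79 expected (ratio 2.59, 95% interval 1.44 to 4.32), and it was the only stromal gene with UMIs in members, at 1.67 without library 6. Heat shock genes, which vary with handling of tissue, were at 1.12 (1.07 to 1.17), and the mitochondrial share of UMIs was 0.841% in members and 0.926% in comparison cells. The part of these differences in the results above was not tested.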

How the data were processed

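Single-cell RNA-seq with the Chromium 10x 5′ chemistry was performed on sorted TCRβ+ T cells, 3 PBS and 3 DTx samples. The authors made the deposited table of UMI counts with Cell Ranger and Seurat per the labels, and it holds cells with 201 to 2494 genes. Library numbers 1 to 6 are tied to no sample by a label. The labels name the build mm9 and the study's methods mm10, so gene positions are those of GRCm38 and play no part in the counts. The members, gene lists and comparisons were chosen with earlier results of these data known.

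Raw counts were used. Expected UMIs came from comparison cells of the same library and depth quartile, 0.5 was added to both counts before log2, and genes with at least 20 UMIs found plus expected were kept. Of 228 genes on 24 lists, 214 were in the table. Named genes were the 15 highest and 10 lowest ratios past 2-fold with 1 direction in all 3 libraries of at least 10 members, without receptor segments and the genes of the rule. The cells of each gene are described by list genes and by leading genes of the same kind. Alternative matchings, minima and members were tried. Thinning drew UMIs without replacement, and doublets were not called. The calculation was run on simulated counts, drawn from the same comparison shares that gave the expected UMIs. These draws had no spread between cells beyond counting error, so they could not show how such spread affects the calls. Python 3.11.15, numpy 2.4.6, scipy 1.17.1 and pandas 2.3.3 were used.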

Additional observations from a re-analysis of the deposited data

How the results depend on the processing

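The member share of 0.648% moved to 0.039% with 3 genes required, 0.416% at 1500 UMIs and 0.247% at 1000 UMIs, and ran from 0.498% to 0.786% with 1 library left out, lowest without library 4. The 52 genes at least 2-fold higher became 3 with a minimum of 50 UMIs, 1418 with no minimum and 11 in the 5 members with 3 genes, and 39 to 55 with 1 library left out. The 43 lower genes became 11, 5347 and 5 under the same settings, 27 when matched by library only, and 10 to 42 with 1 library left out. With 1 library left out, between 11 and 47 of the 52 higher and between 6 and 39 of the 43 lower genes were called again, fewest without library 4, where fewer genes reached the minimum of UMIs. The median log2 ratio of all genes, 0.07, was -0.10 with no minimum. When the Cd4 and Cd8 gate was matched as well, which was added after seeing the data, the Treg list median went from 0.25 to 0.10. That of the NK receptors went from -0.68 to -0.012. The type 2 median went from 0.49 over 6 tested genes to -0.29 over 8, so its change of sign was not over the same genes. The NK receptor median ran from -0.88 to -0.37 with 1 library left out. Of the named genes, none changed direction under the alternatives that kept it in the test, and 10 of their values lost the 2-fold call while 330 kept it, the call being made on UMIs found over expected with nothing added. The co-occurrence ratios stayed inside their intervals under all 8 alternatives. Apart from the fewer UMIs, cells or genes that a setting leaves, the cause was not tested. No paired analysis was possible because the columns carry no sample and no test between treatments was made. Members were more frequent among deep cells, and 56 of 83 rest on 2 molecules, so rare transcripts below about 20 UMIs could not be ranked.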
